A study of Mus musculus with 12 samples.

Results

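Bone morphogenetic proteins (BMPs) are secreted ligands that bind paired receptors, which phosphorylate the signalling Smads. Phosphorylated Smad1 enters the nucleus with Smad4 and switches on target genes, among them the Id genes and the inhibitory Smads that feed back on the pathway. Id proteins bind and block the E proteins that proneural transcription factors need as partners, and in the embryonic forebrain BMP signalling is known for roles in stem cell maintenance and astrocyte fate. The 10 genes described here were chosen by symbol. They are the Id genes Id1, Id2, Id3 and Id4, the ligands Bmp4 and Bmp7, the type I receptor Bmpr1a, the signalling Smad Smad1, and the inhibitory Smads Smad6 and Smad7. All 10 were found among the 27095 genes of the count tables.

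The mark studied, H3K14ac, is the acetylation of lysine 14 on histone H3, placed by HBO1 (gene Kat7) and other acetyltransferases. ChIP-seq, the sequencing of DNA pulled down with an antibody, was run on neural stem and progenitor cells of the mouse from the cortex and ganglionic eminences of E14.5 foetuses. The libraries were H3K14ac ChIP of Hbo1 null cells (1 per stage), of wild-type (WT) cells in differentiating conditions (dissociated neurospheres plated on laminin in a cortical neuron medium, n = 3) and of WT cells in proliferating conditions (neurospheres, n = 3), with 1 library per stage of WT input chromatin and of an IgG control. The study's description names 4 WT foetuses and calls the Hbo1 deleted cells a negative control without the mark. No label says which foetus or culture a library came from or how Hbo1 was deleted, so the spread that p-values rest on is that between libraries and may be technical. Reads were counted in the first 1000 bases from the transcription start (TSS window) and in the gene body, which is the entire gene with its window.

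Gene body totals were 320601 (differentiating) and 64071 (proliferating) counts in the Hbo1 null libraries, and 12549913 to 17074249 in differentiating and 3992697 to 7611239 in proliferating WT ChIP libraries. Input held 12689734 and 11871306 and IgG 2771713 and 2526252 counts in differentiating and proliferating cells. Values below are counts scaled to 1000000 gene body counts of the library (CPM). The windows of the 10 genes have the same length, so their levels need no correction for length. These levels are not divided by input, which differed between windows. Smad1 input held 0.394 and 0.674 CPM in differentiating and proliferating cells, and Id3 input 1.34 and 1.68 CPM. The share of counts lying in TSS windows was 3.24% to 3.68% in differentiating and 4.56% to 4.90% in proliferating WT libraries. Libraries differed in counts over 4 single-copy Y chromosome genes. Differentiating WT replicate 3 held 120 CPM there, against 3.98 and 5.55 in the other differentiating WT libraries and 4.20 to 22.9 in the proliferating ones. The null libraries held 78.0 and 31.2 CPM and the IgG libraries 133 and 120 CPM in differentiating and proliferating cells, against 3.86 and 3.20 CPM in input. The IgG controls and the differentiating null library thus stood apart from most of the WT ChIP libraries they are set against. The proliferating null value comes from few reads, in a library of 64071 counts, and is imprecise. The part of these differences in the comparisons with controls was not tested. Over the gene body Kat7, the deleted gene, held 34.3 and 62.4 CPM (11 and 4 counts) in the null libraries and 26.9 to 37.9 CPM in the WT ones. These are counts of DNA and check neither its deletion nor its expression. Windows of 10 neural stem cell markers summed to 1.45 to 2.30 times input in differentiating and 2.83 to 3.90 times input in proliferating cells. Windows of 5 blood markers summed to 0.793 to 0.872 and 0.533 to 0.908 times input, and those of 6 microglial markers to 0.861 to 1.21 and 0.705 to 1.02 times input, again with differentiating cells first. Windows of 7 oligodendrocyte lineage markers summed to 1.33 to 1.46 times input in differentiating and 1.63 to 1.86 times input in proliferating cells, and like the stem cell markers they did not overlap between the stages. The share of counts in all TSS windows, given above, did not overlap between the stages either, with 3.23% and 3.36% in differentiating and proliferating input. The lack of overlap is thus not particular to these markers. The other marker lists overlapped. Neuronal markers summed to 1.07 to 1.49 times input in differentiating and 1.22 to 1.26 in proliferating cells, astrocyte markers to 1.05 to 1.5 and 1.32 to 1.85, endothelial markers to 0.917 to 1.15 and 0.948 to 1.21, and meningeal and mesenchymal markers to 1.04 to 1.20 and 1.11 to 1.40. Any part of cell make-up in the stage values below was not tested, and in bulk ChIP fewer cells with the mark and less mark per cell cannot be told apart.

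In RefSeq (GRCm38) Id1 (gene ID 15901) lies at chr2:152736251-152737410, Id2 (15902) at chr12:25093799-25096092, Id3 (15903) at chr4:136143822-136145392 and Id4 (15904) at chr13:48261116-48266028. The ligand genes are at chr14:46383525-46390669 (Bmp4, 12159) and chr2:172868012-172940321 (Bmp7, 12162), and the receptor gene Bmpr1a (12166) is at chr14:34411061-34503336. Smad1 (17125) lies at chr8:79338395-79399428 and Smad6 (17130) at chr9:63953076-64022085, and Smad7 has gene ID 17131. The Id genes are short, 1137 to 2610 bases in the deposited tables, so that the window covers much of each, while the gene of Smad1 spans 61074 bases.

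Upstream sequences are shown for Smad1, Id2, Id4 and Id3, since Smad1, Id2 and Id4 are among the genes with window calls described below, and Id3 is shown beside its relatives. Sequences of 250 bases before the start were taken from RefSeq (GRCm38.p6), in which 7 of the 10 genes were matched. They lie at chr8:79399429-79399678 (minus strand) for Smad1, chr12:25096093-25096342 (minus strand) for Id2, chr13:48260866-48261115 (plus strand) for Id4 and chr4:136143572-136143821 (plus strand) for Id3. Capitals mark GGCGCC, a GC-rich element that Smads can bind, and CAGAC, the short Smad element, each searched on both strands, so CAGAC can read GTCTG.
Smad1: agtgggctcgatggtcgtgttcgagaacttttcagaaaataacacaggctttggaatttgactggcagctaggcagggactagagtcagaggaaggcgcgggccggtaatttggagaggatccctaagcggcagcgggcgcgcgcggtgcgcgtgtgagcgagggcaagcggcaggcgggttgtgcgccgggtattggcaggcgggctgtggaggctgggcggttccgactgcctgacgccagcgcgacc
Id2: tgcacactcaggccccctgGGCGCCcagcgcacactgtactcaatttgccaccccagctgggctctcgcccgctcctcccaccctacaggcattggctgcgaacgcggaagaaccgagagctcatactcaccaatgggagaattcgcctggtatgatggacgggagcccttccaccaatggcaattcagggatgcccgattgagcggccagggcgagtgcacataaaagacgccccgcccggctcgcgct
Id4: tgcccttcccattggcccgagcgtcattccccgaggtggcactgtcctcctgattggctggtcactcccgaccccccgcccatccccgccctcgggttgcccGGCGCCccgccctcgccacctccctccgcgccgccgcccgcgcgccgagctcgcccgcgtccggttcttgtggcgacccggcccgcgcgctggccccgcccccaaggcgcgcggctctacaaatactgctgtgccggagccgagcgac
Id3: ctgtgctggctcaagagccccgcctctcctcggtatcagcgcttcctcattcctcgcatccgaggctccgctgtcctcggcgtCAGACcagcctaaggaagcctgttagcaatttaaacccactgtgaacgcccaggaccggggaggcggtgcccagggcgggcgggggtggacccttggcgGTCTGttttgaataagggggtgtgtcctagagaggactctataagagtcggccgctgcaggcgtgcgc
GGCGCC stood once each upstream of Id2, Id4 and Bmpr1a and in 9.59% of 32841 RefSeq promoters cut to the same length. CAGAC stood at 2 places upstream of Id3 and in 42.2% of all promoters. The E-box CACGTG was present upstream of Bmp4 (6.02% of promoters), and TATAAA upstream of none of the 7 (12.4% of promoters). These are matches of letters and not measured binding sites. Smad1 had 25 CpG pairs in the 250 bases, more than 89.3% of promoters, and Id4 had 35, more than 97% of promoters, while Id2 and Id3 had 18 each, more than 78.3%. The deposited length of Id4, 2610 bases, differs from the 4913 bases in RefSeq, so its window and the sequence above need not share a start.

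In ChIP CPM, not divided by input, the Id4 window was the highest of the 10 genes in differentiating cells and Smad6 the lowest. In proliferating cells Smad1 was the highest and Bmp4 the lowest. In differentiating cells Id4 averaged 2.11 ± 0.417 CPM (SD, n = 3), followed by Smad7 (1.87 ± 0.103), Id2 (1.69 ± 0.232), Id3 (1.63 ± 0.149) and Id1 (1.35 ± 0.150). Smad1 stood in the middle at 1.24 ± 0.450 CPM, near the median of 1.20 CPM over the 23530 windows of genes longer than 1000 bases. Bmp4, Bmpr1a, Bmp7 and Smad6 followed at 1.13 ± 0.0534, 1.09 ± 0.249, 1.06 ± 0.326 and 0.761 ± 0.321 CPM. Neighbours in this order lay closer than the larger of their SDs, apart from Id3 and Id1.

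In proliferating cells Smad1 averaged 4.69 ± 1.37 CPM (SD, n = 3), above 97.8% of these windows. Id4 averaged 3.58 ± 0.589, Id1 2.95 ± 0.169, Id2 2.61 ± 1.01, Smad7 2.43 ± 0.866 and Id3 2.42 ± 0.540 CPM. These 6 genes lay above the median window of 1.51 CPM. Bmp7, Bmpr1a, Smad6 and Bmp4 followed at 1.26 ± 0.713, 1.13 ± 0.105, 0.904 ± 0.213 and 0.845 ± 0.516 CPM. Neighbours here lay closer than the larger SD, apart from Id4 and Id1, Id3 and Bmp7, and Bmpr1a and Smad6.

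**Figure D1:**
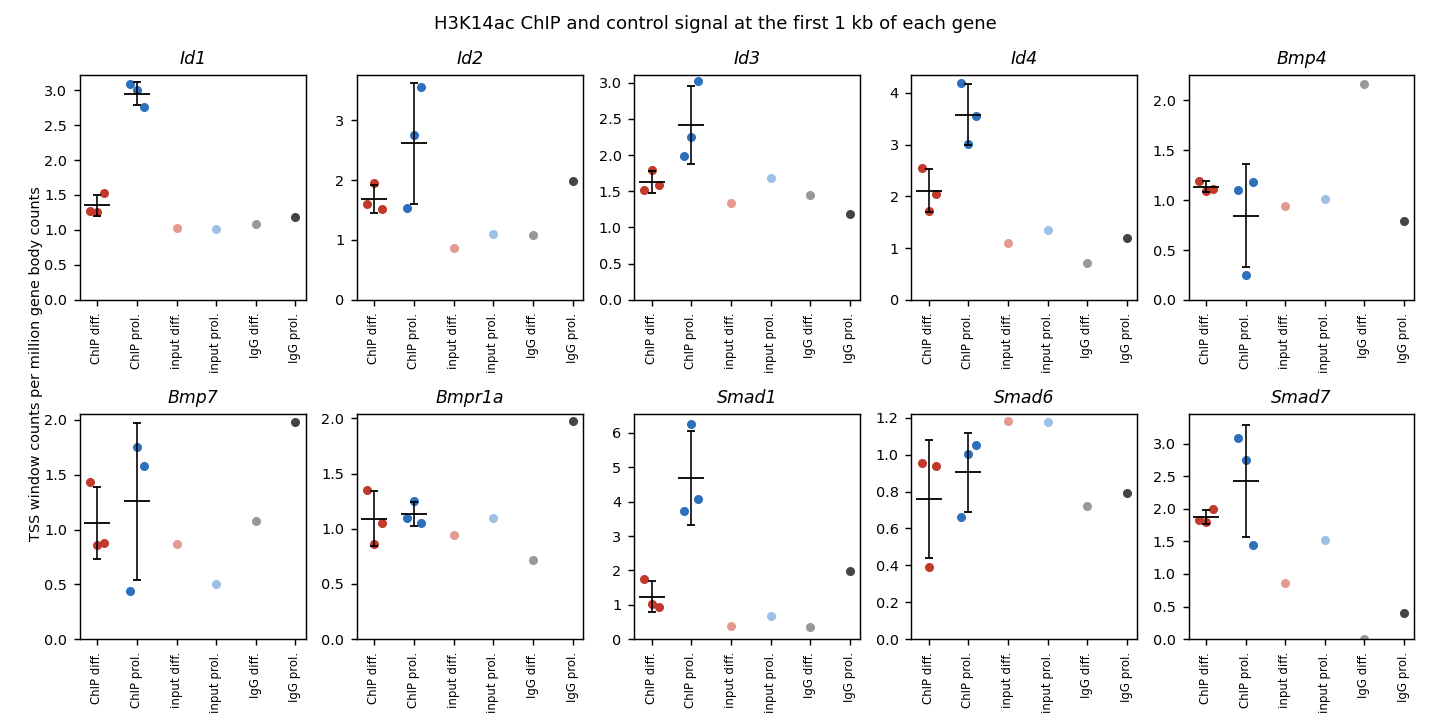
TSS window signal of the 10 genes in CPM (y axis) in each library. Red and blue points are WT H3K14ac ChIP in differentiating and proliferating cells with mean and SD bars (n = 3 each), followed by single input and IgG libraries; the 3 proliferating Smad1 points lie at 3.74 to 6.26 CPM, above all differentiating points at 0.937 to 1.75 CPM.

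The question of the study is how H3K14ac differs between the stages. Of the 10 genes, the Smad1 window was the one called changed, with Id1 joining it when windows were scaled by gene body totals. The Smad1 window fell on differentiation to 0.351 of its proliferating level after TMM scaling, which sets the windows of a library to their own bulk, and further (log2 −1.91, edgeR adjusted p = 8.2e-07) on the scale of gene body totals, on which CPM is given. The Id windows were lower in value in differentiating cells without passing the test, and the ligand, receptor and inhibitory Smad windows did not pass either. Among all 19477 windows tested 8.06% changed, 1.43% being higher and 6.63% lower. Thus 1 of the 9 members tested was called, and Smad6 was not tested because its mean count lay under 10.

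The Smad1 window held 22, 13 and 16 counts (1.75, 1.02 and 0.937 CPM) in the differentiating libraries, against 17, 25 and 31 counts (3.74, 6.26 and 4.07 CPM) in the proliferating ones. Every proliferating library was above every differentiating one, and none overlapped. The share of all windows without overlap in CPM was not counted, here and for the genes below. The Smad1 change was log2 −1.51 (SE 0.30, 95% interval −2.09 to −0.93, edgeR adjusted p = 0.000217 over all windows, n = 3 each), which placed Smad1 at rank 39 by p and rank 35 by size among the falls. Windows with a mean count of at least 30, which Smad1 does not reach, had a median change of log2 −0.80. The Smad1 change was −1.36 (edgeR adjusted p = 0.0124) without differentiating replicate 3, the WT library with the highest Y chromosome counts. Over the rest of its gene Smad1 held 1.00, 1.03 and 0.939 CPM per kb in differentiating and 1.28, 0.971 and 1.05 CPM per kb in proliferating libraries, which overlap. There the change was log2 −0.16 (SE 0.09, edgeR adjusted p = 0.536).

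Since the stages differ in depth, the density of the window was also divided by that of the rest of the same gene. This ratio needs no scaling between libraries but still carries the stage difference in the share of counts at gene starts. For Smad1 it was 1.75, 0.985 and 0.998 in differentiating and 2.93, 6.45 and 3.90 in proliferating cells, with 0.359 and 0.579 in differentiating and proliferating input and 0.366 and 1.84 in IgG. The proliferating values all lay above the differentiating ones. The difference in means was −3.18 at a two-sided exact permutation p of 0.1, the smallest that 3 against 3 libraries allow. Of the 9 genes for which this ratio was computed, Smad1 was the one whose stages did not overlap. How many of all genes keep their stages apart in this ratio was not counted. Id4 stood at 2.24, 1.42 and 1.44 in differentiating and 3.40, 2.76 and 2.17 in proliferating cells (exact permutation p = 0.2), and the 7 others had exact permutation p-values from 0.3 to 1. No p in this family could pass a threshold of 0.05 in this design. Id1 was left out, because only 137 of its bases lie outside the window.

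**Figure D2:**
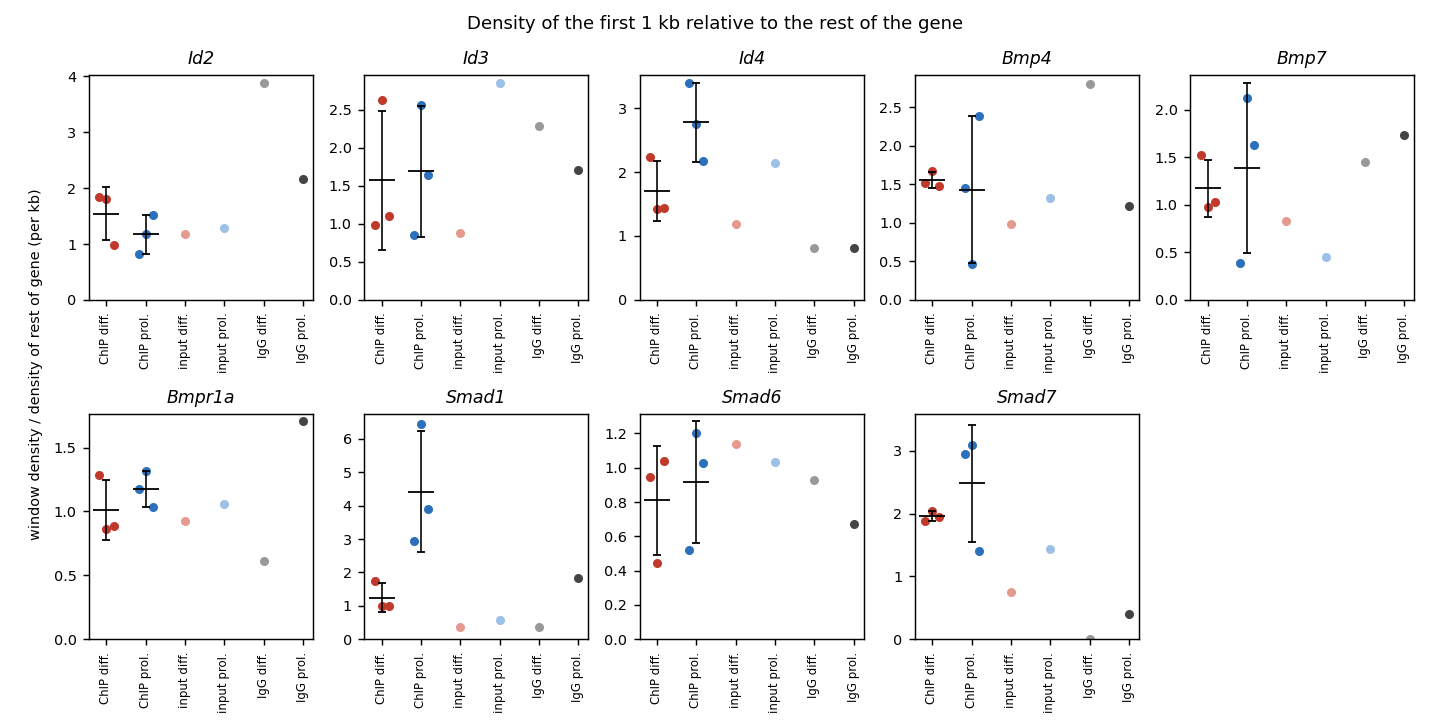
Count density of the first 1 kb divided by that of the rest of the gene (y axis, ratio without unit) for 9 genes, in each library, with mean and SD bars for the WT ChIP groups (n = 3 each). The 3 proliferating Smad1 points (2.93 to 6.45) lie above the 3 differentiating ones (0.985 to 1.75); the stages overlap in the other 8 genes.

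Id proteins lack a DNA binding domain and hold E proteins away from DNA. The Id1 window held 1.27, 1.25 and 1.52 CPM in differentiating and 3.08, 3.01 and 2.76 CPM in proliferating libraries. The groups did not overlap on this scale. The test with TMM scaling gave log2 −0.69 (SE 0.31, edgeR adjusted p = 0.144). Scaled by gene body totals instead, the fall of Id1 was −1.09 (edgeR adjusted p = 0.00587), with the median of all windows at −0.47 under that scaling and −0.08 under the first. Whether the Id1 window is counted among the changed ones thus turns on the scaling.

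The Id4 window held 2.55, 1.72 and 2.05 CPM in differentiating and 4.18, 3.01 and 3.55 CPM in proliferating libraries, again without overlap on the CPM scale. The Id2 window held 1.59, 1.96 and 1.52 CPM in differentiating and 1.54, 2.76 and 3.55 CPM in proliferating libraries. The Id3 window held 1.51, 1.80 and 1.58 CPM in differentiating and 1.98, 2.25 and 3.02 CPM in proliferating libraries. The Id2 stages overlapped through proliferating replicate 1, and the Id3 stages did not. Their stage changes were log2 −0.37 (95% interval −0.94 to 0.20) for Id4, −0.32 (−0.91 to 0.28) for Id2 and −0.23 (−0.84 to 0.38) for Id3, with edgeR adjusted p of 0.459, 0.563 and 0.697. The intervals leave room for a fall of more than 1.5-fold in each of the 3 genes, so a change of that size was not detectable at 7 to 35 counts per window. Summed over the 4 Id genes, the windows held 6.78 ± 0.135 CPM in differentiating and 11.6 ± 1.14 CPM in proliferating cells (SD, n = 3 each).

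Bmp4 and Bmp7 encode ligands of the pathway. The Bmp4 window held 1.20, 1.10 and 1.11 CPM in differentiating and 1.10, 0.250 and 1.18 CPM in proliferating cells, the lowest value being a single count in proliferating replicate 2. The Bmp7 window held 1.43, 0.861 and 0.879 CPM in differentiating and 0.440, 1.75 and 1.58 CPM in proliferating cells. Both genes overlapped between the stages. The stage values were log2 0.69 (SE 0.44, edgeR adjusted p = 0.346) for Bmp4 and 0.08 (SE 0.41, edgeR adjusted p = 0.925) for Bmp7, and with gene body totals the Bmp7 value was −0.31.

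Bmpr1a encodes a type I receptor kinase, and the inhibitory Smads Smad6 and Smad7 block signalling at the receptors. The Bmpr1a window ranged from 0.861 to 1.35 CPM in differentiating and from 1.05 to 1.25 CPM in proliferating cells (log2 0.35, SE 0.42, edgeR adjusted p = 0.654). The deposited Bmpr1a gene is 49548 bases long against 92276 in RefSeq, so its window may belong to another start than the promoter matched here. The Smad7 window held 1.83, 1.80 and 1.99 CPM in differentiating and 3.08, 2.76 and 1.45 CPM in proliferating cells, which overlapped (log2 0.15, SE 0.31, edgeR adjusted p = 0.818). With gene body totals the signs of Bmpr1a (−0.04) and Smad7 (−0.26) turned. The Smad6 window held 12, 5 and 16 counts in differentiating and 3, 4 and 8 counts in proliferating libraries, which is 0.391 to 0.956 and 0.660 to 1.05 CPM.

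**Figure D3:**
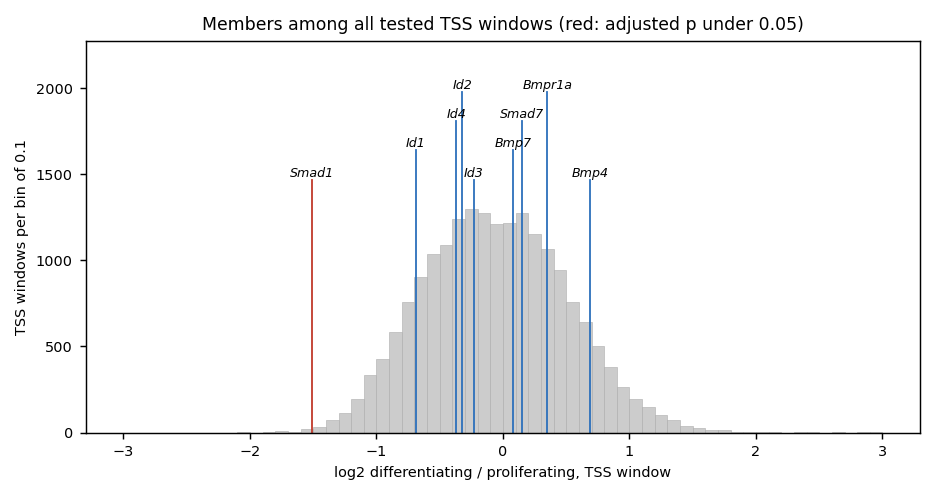
Stage change of all 19477 tested TSS windows (x axis, log2 differentiating over proliferating; y axis, windows per bin of 0.1), with vertical lines for the 9 tested genes of the pathway. Smad1 (red) lies at −1.51 in the lower tail, and the other lines lie between −0.69 and 0.69.

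Over whole gene bodies none of the 10 genes was called changed between the stages, and the 4 Id genes had the lowest values. They stood at log2 −0.99 for Id1 (SE 0.23, edgeR adjusted p = 0.161), −0.75 for Id2 (SE 0.24, adjusted p = 0.290), −0.54 for Id3 (SE 0.21, adjusted p = 0.399) and −0.45 for Id4 (SE 0.18, adjusted p = 0.399). The 6 other genes lay between −0.18 for Smad1 and 0.35 for Bmp4. Of all 24564 gene bodies tested 0.138% changed. The Id2 body held 2.71, 3.36 and 3.51 CPM in differentiating and 3.96, 5.76 and 6.57 CPM in proliferating libraries, with all proliferating values on top. Outside the window Id2 was at log2 −0.89 (SE 0.29, edgeR adjusted p = 0.392). None of the 8 genes with enough counts outside the window was called there, against 0.0322% of 21752 genes.

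**Figure D4:**
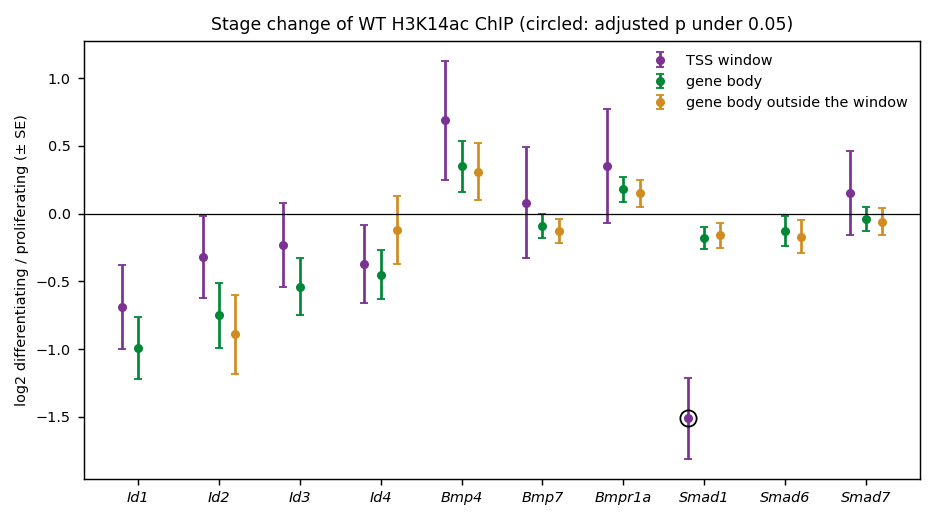
Stage change of WT H3K14ac (y axis, log2 differentiating over proliferating, bars ± SE, n = 3 libraries each) of the TSS window, the gene body and the gene body outside the window. The Smad1 window at −1.51 is circled as called; Smad6 has no window value, and Id1 and Id3 have no outside value, because their mean counts lay under 10.

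Signal over input asks whether the antibody enriched a window at all. In differentiating cells none of the 9 tested windows passed against the input of the same stage, where 0.0881% of all 21557 windows did and the median was log2 0.09. Smad6 again lay under the count minimum. Smad1 averaged 1.24 CPM against 0.394 CPM (5 counts) in input and had the largest value, log2 1.59 (SE 0.63, edgeR adjusted p = 0.340), followed by Smad7 with 1.11 (SE 0.48, adjusted p = 0.401), Id2 with 0.94 (SE 0.49, adjusted p = 0.511) and Id4 with 0.92 (SE 0.47, adjusted p = 0.507). Id1, at 1.02 CPM in differentiating input, was at 0.41 (SE 0.47, edgeR adjusted p = 0.825), and Id3, Bmp4, Bmp7 and Bmpr1a lay between 0.20 and 0.28. All 9 values were above 0, as were 57.1% of all windows.

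In proliferating cells 4 of the 9 tested windows were higher in the ChIP than in input, namely Smad1, Id1, Id4 and Id2. Of all windows 17.7% were higher and 0.524% lower, and the median of all windows was log2 0.45. The Smad1 window averaged 4.69 CPM against 0.674 CPM (8 counts) in input, and its ChIP over input was log2 2.74 (SE 0.50, edgeR adjusted p = 1.21e-05), 6.67-fold and rank 70 by p. The Id1 window averaged 2.95 CPM against 1.01 CPM in input (log2 1.52, SE 0.47, edgeR adjusted p = 0.0118). Id4 averaged 3.58 CPM against 1.35 CPM in input (log2 1.41, SE 0.47, edgeR adjusted p = 0.02), and Id2 2.61 CPM against 1.10 CPM (log2 1.32, SE 0.48, edgeR adjusted p = 0.0359). Each proliferating ChIP library was above the input in all 4 genes.

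The Id3 input window was the highest of the 4 Id genes, at 1.34 CPM in differentiating cells and 1.68 CPM in proliferating cells. Its ChIP was log2 0.58 over proliferating input (95% interval −0.30 to 1.46, edgeR adjusted p = 0.417), and the difference between Id3 and the other Id genes was not tested. Bmp7 had a value of log2 1.34 (SE 0.67, edgeR adjusted p = 0.155), Smad7 0.57 (SE 0.47, adjusted p = 0.438), Bmpr1a 0.03 (SE 0.57, adjusted p = 0.982) and Bmp4 −0.13 (SE 0.60, adjusted p = 0.919). Of the 4, only Smad1 was also called both with TMM scaling (log2 2.36, edgeR adjusted p = 0.000195, median of all windows 0.08) and with DESeq2 (log2 2.78, adjusted p = 0.00705). Under TMM scaling Id1, Id4 and Id2 stood at 1.15, 1.03 and 0.96 (edgeR adjusted p 0.0879, 0.118 and 0.173), and calls were lost for Id2 without proliferating replicate 3 (0.94, adjusted p = 0.309) or replicate 2 (1.32, adjusted p = 0.0601) and for Id4 without replicate 1 (1.30, adjusted p = 0.0521) or replicate 3 (1.42, adjusted p = 0.0637).

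The stage difference relative to input itself, an interaction with a single input library per stage, was log2 −1.15 for Smad1 (SE 0.96, edgeR adjusted p = 0.704) and −1.11 for Id1 (SE 0.70, adjusted p = 0.580). No member was called in it, against 0.0278% of windows, so a stage difference of Smad1 beyond that of the inputs was not detectable with 5 and 8 input counts. Smad1 input was itself lower in differentiating cells (0.394 CPM) than in proliferating ones (0.674 CPM).

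**Figure D5:**
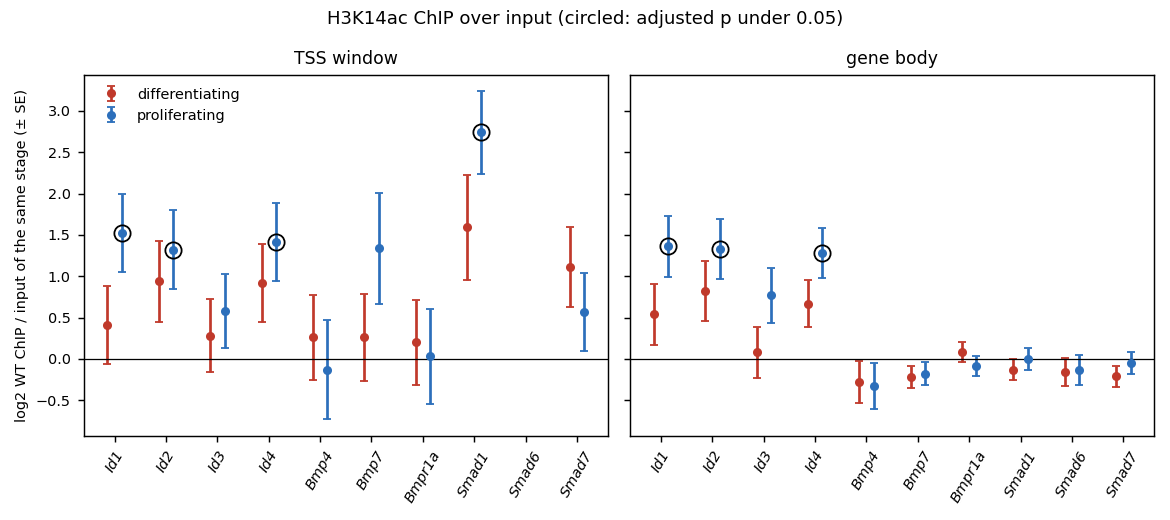
WT H3K14ac ChIP over the input of the same stage (y axis, log2, bars ± SE, 3 ChIP libraries against 1 input) at TSS windows (left) and gene bodies (right), differentiating in red and proliferating in blue. Circled values passed: Smad1 (2.74), Id1, Id4 and Id2 at proliferating windows and the last 3 at proliferating gene bodies; Smad6 had too few window counts.

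The summed windows of the 4 Id genes stood at 1.60, 1.55 and 1.54 times input in differentiating and at 2.10, 2.14 and 2.51 times input in proliferating libraries, against 0.999 and 1.08 in the differentiating and proliferating IgG libraries. Every ChIP library was above both IgG values. For all windows together, the share of counts in TSS windows was 3.24% to 3.68% in differentiating and 4.56% to 4.90% in proliferating ChIP libraries. It was 3.23% and 3.36% in differentiating and proliferating input and 2.90% and 3.34% in IgG. All windows together thus also kept the stages apart, and a part of the Id genes beyond this was not tested. The summed windows of the ligands were at 1.45, 1.08 and 1.10 in differentiating and 1.02, 1.32 and 1.82 in proliferating libraries, with 1.79 and 1.83 in differentiating and proliferating IgG. The IgG value of each stage thus lay above every ChIP library of that stage for the ligands. These IgG values rest on 9 and 7 counts in differentiating and proliferating cells. The proliferating one (1.83) nearly equalled the highest ChIP library (1.82).

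At gene bodies the calls over input fell on Id genes. In differentiating cells no member passed, where 1.93% of 24848 gene bodies did, with Id2 at 0.82 (edgeR adjusted p = 0.188) and Id4 at 0.67 (adjusted p = 0.179). In proliferating cells Id1 (log2 1.36, SE 0.37, edgeR adjusted p = 0.0468), Id2 (1.33, SE 0.36, adjusted p = 0.0471) and Id4 (1.28, SE 0.30, adjusted p = 0.0308) were higher than input, 3 of 10 members where 2.89% of gene bodies were higher and 6.38% lower. Id3 was at 0.77 (SE 0.33, edgeR adjusted p = 0.174), and the 6 others, from Bmp4 at −0.33 to Smad1 at 0.00, did not pass. The window makes up a large part of an Id gene and a small part of the Smad1 gene of 61074 bases, so body and window are not independent for the Id genes. With DESeq2 the Id4 and Id2 bodies had adjusted p of 0.0503 and 0.0640 and the tool gave none for Id1. The body calls also changed with single libraries. Without proliferating replicate 3 none of the 3 was called (Id1 1.41, Id2 1.14 and Id4 1.21; edgeR adjusted p 0.115, 0.152 and 0.107), and without differentiating replicate 1 or 2 none was either (adjusted p 0.0543 to 0.0893). Without proliferating replicate 2 Id1 and Id2 were lost (adjusted p 0.0784 and 0.0890).

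Against IgG no window of the members was called. IgG windows of the 10 genes held 0 to 6 counts, and 6 of the genes reached the mean count of 10 over the libraries of the fit. In differentiating cells Smad7 had no IgG count, and its ChIP mean of 1.87 CPM was 1.73-fold the floor of 3 counts in that library (1.08 CPM). The two-sided exact Poisson interval of that count of 0 ends higher, at 1.33 CPM. No member passed there, against 0.0228% of 13158 windows that changed in that stage, and no window was higher (edgeR; 1254 windows had an unadjusted p under 0.05, and DESeq2 called 0 in either direction). In proliferating cells Smad7 was at log2 2.47 (SE 1.11, edgeR adjusted p = 0.153), Id4 at 1.58 (SE 0.79, adjusted p = 0.205), Id1 at 1.29 (SE 0.79, adjusted p = 0.311) and Smad1 at 1.20 (SE 0.66, adjusted p = 0.251). Id3 was at 1.07 (SE 0.81, edgeR adjusted p = 0.425) and Id2, called over input, at 0.47 (SE 0.70, adjusted p = 0.713). None of the 6 passed, where 4.49% of windows did and the median was 0.86. The proliferating IgG window of Smad1 held 5 counts (1.98 CPM, 95% exact Poisson interval 0.643 to 4.62), which reaches into the range of the proliferating ChIP libraries. The stage difference relative to IgG was not called in any of the 6, against 0.0304% of windows.

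The Hbo1 null libraries were too shallow to test windows. Over the 10 windows they held 1 count in differentiating cells (in Bmpr1a) and 1 count in proliferating cells (in Smad7), where 4.47 and 1.46 counts correspond to the WT level. The exact Poisson interval of a single count runs from 0.0253 to 5.57 counts, so both sums are within counting error of the WT level, and intervals of this kind cover counting error only. The 4 Id windows held 0 counts in both null libraries, against 2.17 and 0.741 at the WT level, where the floor used here for a count of 0 is 3 counts and the two-sided exact Poisson interval ends at 3.69 counts. Over gene bodies the 10 genes held 76 counts (59.9 to 95.1) in null differentiating cells, with 91.9 at the WT level, and 20 counts (12.2 to 30.9) in null proliferating cells, with 19.9 at the WT level. The Smad1 body had 11 and 6 counts, with 19.5 and 4.53 at the WT level (log2 −0.47, SE 0.34, edgeR adjusted p = 0.752). None of the 10 bodies was called, where 0.219% of 23336 changed, and Id1 and Id3 held 0 counts, for which no fold is given since the WT level lies under the floor of 3 counts.

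Of 52 other genes of the BMP pathway, 43 windows were tested between the stages, and 7 fell and 0 rose (median log2 −0.33, against −0.08 and 6.63% lower over all windows). Smad1's partners and regulators were among them. The Smad4 window, of the common partner Smad, held 1.20, 1.49 and 0.996 CPM in differentiating and 3.74, 3.51 and 2.89 CPM in proliferating libraries (log2 −1.04, SE 0.31, edgeR adjusted p = 0.0180). The Smad5 window, of a close relative of Smad1 and named here after its values were seen, held 1.51, 1.02 and 1.41 CPM in differentiating and 2.64, 3.51 and 3.55 CPM in proliferating libraries (log2 −0.91, SE 0.30, edgeR adjusted p = 0.0408). Both genes showed no overlap between stages. Smad9, the other close relative of Smad1 and likewise named after its values were seen, had a value of the opposite sign that missed the threshold (log2 0.72, SE 0.32, edgeR adjusted p = 0.139).

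Skil and Ski, which encode repressors of Smad activity, were lower by log2 −1.20 (SE 0.29, edgeR adjusted p = 0.00268) and −1.01 (SE 0.28, adjusted p = 0.0109), and Rgma, a BMP co-receptor, by −0.97 (SE 0.29, adjusted p = 0.0217). The Ski window held 1.99, 1.88 and 2.17 CPM in differentiating and 5.06, 7.26 and 4.47 CPM in proliferating libraries, and the Skil window 2.71, 0.861 and 1.52 CPM in differentiating and 3.52, 6.51 and 5.26 CPM in proliferating libraries. None of these 5 calls held in every fit that left out 1 library. Ski was lost without proliferating replicate 2 (edgeR adjusted p = 0.103), and Skil without differentiating replicate 2 (0.0532) or proliferating replicate 3 (0.0650). Smad4 was lost without differentiating replicate 3 (edgeR adjusted p = 0.0976) or any 1 proliferating library (0.0506 to 0.0632). Rgma was lost without differentiating replicate 1 or 3 and without proliferating replicate 2 or 3 (edgeR adjusted p 0.0618 to 0.119), and Smad5 without any 1 library other than proliferating replicate 1 (0.0569 to 0.264). Smad4, Rgma and Smad5 also missed with DESeq2 (adjusted p 0.0703, 0.0662 and 0.117), and Smad5 without a filter on low counts (edgeR adjusted p = 0.058). With the replicate number as a block Rgma and Smad5 were lost too (edgeR adjusted p 0.051 and 0.081). By contrast, the Smad1 call held in each of the 6 leave-outs, between log2 −1.76 and −1.29.

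None of the 45 tested windows of these other pathway genes was called over input in differentiating cells. In proliferating cells 18 of them were higher and 0 lower (median log2 1.01, against 0.45 and 17.7% over all windows). By role these were 6 of 8 intracellular regulators, 3 of 6 receptors, 2 of 3 co-receptors, 2 of 3 signalling Smads, 3 of 3 E protein partners of the Id proteins, 1 of 9 extracellular antagonists, 1 of 8 further targets and 0 of 5 ligands. Rgma was at log2 2.55 (SE 0.52, edgeR adjusted p = 7.62e-05), Smad5 at 2.45 (SE 0.52, adjusted p = 0.000174), Tcf12, an E protein gene, at 2.17 (SE 0.48, adjusted p = 0.000278) and Skil at 2.10 (SE 0.47, adjusted p = 0.000305). The other E protein genes, Tcf3 and Tcf4, were at 1.35 (SE 0.50) and 2.17 (SE 0.55), with edgeR adjusted p of 0.0397 and 0.00141. At gene bodies in proliferating cells 3 of 52 were higher than input, against 2.89% of all gene bodies. They were the Notch and BMP target genes Hes5 (log2 2.04, edgeR adjusted p = 0.0256) and Hes1 (1.07, adjusted p = 0.0471) and the antiproliferative regulator Tob1 (1.13, adjusted p = 0.0416). Each of these 3 body calls was lost without proliferating replicate 2 (edgeR adjusted p 0.0557, 0.078 and 0.0851) or 3 (0.101, 0.1 and 0.123), and those of Hes1 and Tob1 also without differentiating replicate 1 or 2 (0.0659 to 0.0825) and with DESeq2 (adjusted p 0.1 and 0.0588).

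Against proliferating IgG 4.49% of all windows were called in either direction. Among the 35 tested here, Skil (log2 3.63, SE 0.99, edgeR adjusted p = 0.0208) and Tcf3 were higher, Tcf3 having no IgG count. Both missed with TMM scaling (edgeR adjusted p 0.0827 and 0.122) and without a filter on low counts (0.0518 and 0.0819). With DESeq2 Skil missed (adjusted p = 0.0881), and the tool gave no adjusted p for Tcf3. Of 10 genes of the TGF-beta and activin branch, the sister pathway with its own Smads, 1 window was lower in differentiating cells and 0 higher. Over all windows 6.63% were lower and 1.43% higher. The 1 lower window was that of Tgfbr1, a type I receptor, at log2 −1.07 (SE 0.30, edgeR adjusted p = 0.0138). This call was lost without differentiating replicate 2 or 3 or proliferating replicate 2 or 3 (edgeR adjusted p 0.0531 to 0.109), and with DESeq2 (adjusted p = 0.0614). In proliferating cells 3 of the 10 were higher than input, against 17.7% of all windows. They were Inhbb (1.58, SE 0.46, edgeR adjusted p = 0.00695), Smad2 (1.62, SE 0.48, adjusted p = 0.00790) and Tgfbr1 (1.33, SE 0.44, adjusted p = 0.0207). With TMM scaling none of the 3 passed (edgeR adjusted p 0.0543, 0.0629 and 0.13), nor with DESeq2 (adjusted p 0.0555, 0.0578 and 0.0958), and without proliferating replicate 2 Inhbb (0.0697) and Tgfbr1 (0.0757) were lost, Tgfbr1 also without replicate 3 (0.0589).

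The windows most like Id1 across the 10 libraries other than the null ones, among 36 well-counted genes, were those of Jun (Pearson r = 0.911), Rbm39 (0.852) and Tnrc18 (0.818) on log2 CPM. Those most like Id3 were Rbm39 (0.809), Jun (0.747) and Spry2 (0.731). Among members, Id1 was closest to Smad1 (r = 0.920), followed by Id3 (0.859), Id4 (0.857) and Id2 (0.771), and farther from Smad7 (0.538). Many other windows were as close, Smad1 holding rank 535 of 16766 by this measure. The libraries share stage, antibody and depth, and these values are a description with no test.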

How the data were processed

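The authors deposited raw read counts per Entrez gene for 12 libraries, in TSS windows and over gene bodies. Per the submitters' processing notes, reads were converted with bcl2fastq and counted with featureCounts on mm10. Aligner, versions, strand setting and the treatment of multiply aligned reads are not given in the sources used here, so reads of genes overlapping Id4, Bmp4, Bmp7 and Smad7 cannot be told apart. The 24 files per sample equalled the series tables. For all 3565 genes of at most 1000 bases window and body counts were equal.

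The test was the quasi-likelihood test of edgeR 4.0.16 under R 4.3.3 (two-sided, prior count 0.125), Benjamini-Hochberg adjustment over all genes tested, a threshold of 0.05 and a mean count of at least 10. Stage fits used the 6 WT libraries with TMM. Fits with input or IgG used 4 groups and gene body totals, and the single control of a stage was assumed to vary like the WT libraries. All comparisons with controls share the WT libraries. The null fit had stage and genotype terms. Alternatives were DESeq2 1.42.0, other scalings and filters, a replicate block and leaving out each library. Scripts were tested on simulated counts with as many rises as falls and a fixed spread, unlike these data. The outcome is not given here and says nothing of the calls above. Windows of the members held 1 to 35 counts in WT libraries, which limits their precision. The deviations of same-numbered libraries had window correlations of 0.169, 0.032 and 0.114, all positive. Over gene bodies the correlations were −0.088, 0.247 and −0.229. Same-numbered libraries thus did not deviate together throughout, and whether the numbers mark pairs is not settled. They were not taken as pairs.

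Members and lists were chosen with earlier results of these data known. All members were named, and of each other list up to 4 genes with the smallest adjusted p under 0.05 per comparison, with Smad5, Smad9, Tcf3 and Tcf4 added after their values were seen.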

Additional observations from a re-analysis of the deposited data

How the results depend on the processing

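Each setting was changed alone, except that DESeq2 used its own scaling in the fits between the stages, so tool and scaling changed together there. The Smad1 window kept its call between the stages under every setting that tested it, and over proliferating input under all, while the Id calls over input depended on scaling, tool and single libraries. Windows called between the stages numbered 5060 with gene body totals (2 members, Id1 and Smad1), 538 with DESeq2, 186 with a mean count of at least 30 (0 members, Smad1 lying under it), and 326 to 1632 without single libraries. With gene body totals Bmp7 (−0.31), Bmpr1a (−0.04) and Smad7 (−0.26) turned sign. Without single libraries the lowest and highest stage values were −0.57 and 0.08 for Id2, −0.37 and 0.04 for Id3, −0.27 and 0.38 for Bmp7 and −0.22 and 0.36 for Smad7. Members called stayed at 1.

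With the replicate number as a block, 907 windows and 16 gene bodies were called between the stages and 0 windows in the input interaction. The Smad1 window was at −1.53 (edgeR adjusted p = 0.002), and no member's call changed. Of the other pathway genes named, Rgma (−0.99, edgeR adjusted p = 0.051) and Smad5 (−0.89, adjusted p = 0.081) lost their stage calls.

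Gene bodies called between the stages numbered 184 with DESeq2 and 3 to 65 without single libraries, where Smad7 ran from −0.09 to 0.02. Outside the window they numbered 49 with DESeq2 and 3 to 22 without single libraries, with Id4 from −0.25 to 0.12.

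Over proliferating input 2194 windows were called with TMM and 1722 with DESeq2 (1 member in each), and 2531 to 4339 without single libraries (2 to 4 members). Bmpr1a was −0.34 with TMM and −0.03 to 0.10 without single libraries, and Bmp4 −0.52 to 0.19. Over differentiating input 0 windows were called with DESeq2, 31 without a filter and 1 to 23 without single libraries. The input interaction called 0 with TMM (Id3 0.02), with DESeq2 and without a filter, and 0 to 65 without single libraries. Gene bodies over proliferating input numbered 1374 with DESeq2 (0 members) and 0 to 5437 without single libraries (0 to 3 members), and with TMM Bmpr1a (0.01) and Smad7 (0.05) turned. Over differentiating input 0 were called with TMM or without a filter, and 0 to 3710 without single libraries.

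Over proliferating IgG 65 windows were called with TMM, 4 with DESeq2, 179 without a filter and 292 to 820 without single libraries. Over differentiating IgG 8 were called with TMM (Id3 −0.07), 0 with DESeq2 and 3 to 5 without single libraries. The IgG interaction called 0 with DESeq2, 1 without a filter and 0 to 4 without single libraries, with Id4 at 0.06 under TMM and −0.20 to 0.05 without single libraries, and Id2 at −0.08 to 0.53. Against the null, 79 gene bodies were called with DESeq2 and 36 to 60 without single libraries. There Id4 ran from −8.60 (with 0 counts in the null library kept, so no bound) to 0.59, Bmpr1a from −0.40 to 0.70 and Smad1 from −0.82 to 0.41.

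The cause of these changes was not tested. The precision is limited by 3 against 3 libraries, 1 library per control and stage, and null libraries in which a window of the 10 genes holds no more than 1 count.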
